A study of Homo sapiens with 6 samples.

Results

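The NRF2 antioxidant pathway was followed through 9 genes: NFE2L2, KEAP1, MAFG, SQSTM1, GCLC, GCLM, TXNRD1, SRXN1 and PGD. They were taken by gene symbol from the platform annotation, whatever their values, and they are 9 of the 16578 genes named on the array, read by 11 of its 22184 probes. The samples were SH-SY5Y cells, a long-established human line derived from a neuroblastoma, a tumour of the sympathetic nervous system, in 2 groups of 3 Illumina bead arrays. One group received atrazine, a triazine herbicide, and the other the vehicle dimethyl sulfoxide (DMSO). All were grown in DMEM/F12 medium with serum, and total RNA was hybridised as biotinylated cRNA. How much atrazine was given and for how long is not given in the sources used here. Replicates are numbered in the labels, with no word on whether each was its own culture, and the spread behind each p-value may therefore be technical.

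NRF2, the product of NFE2L2, is a transcription factor that drives genes of glutathione synthesis, thioredoxin reduction and NADPH supply. KEAP1 binds it in the cytoplasm and hands it to a CUL3 ubiquitin ligase for destruction, until electrophiles or oxidants modify cysteines of KEAP1. NRF2 then pairs with a small MAF protein such as MAFG on antioxidant response elements in the promoters of its targets. SQSTM1 encodes p62, an autophagy receptor that can hold KEAP1 away from NRF2 and is itself an NRF2 target.

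The core of the antioxidant response element, TGACNNNGC, was searched on both strands of RefSeq promoter windows (GRCh38.p14), which run from 250 bases before to 50 bases after an annotated start. It occurred in 4687 of 35116 windows of all genes (13.3%) and in 5 of the 14 windows of these 9 genes, which belonged to KEAP1, GCLM, TXNRD1 and PGD. Its letters can overlap a site of the factor AP-1 (TGANTCA). Shown are windows of both subunits of glutamate-cysteine ligase, whose probes behaved differently on the arrays, and of KEAP1 and TXNRD1, which were lower in atrazine. Each reads 5′ to 3′ on the gene's strand, with matches to the core or its reverse complement in capitals.
GCLC, chr6:53545052-53545351, minus strand: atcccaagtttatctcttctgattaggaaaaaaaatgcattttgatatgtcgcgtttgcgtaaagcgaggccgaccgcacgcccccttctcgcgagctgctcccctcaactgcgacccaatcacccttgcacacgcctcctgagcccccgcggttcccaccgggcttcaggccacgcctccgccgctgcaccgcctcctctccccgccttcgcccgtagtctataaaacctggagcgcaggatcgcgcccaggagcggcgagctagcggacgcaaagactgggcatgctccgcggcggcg
GCLM, chr1:93909381-93909680, minus strand: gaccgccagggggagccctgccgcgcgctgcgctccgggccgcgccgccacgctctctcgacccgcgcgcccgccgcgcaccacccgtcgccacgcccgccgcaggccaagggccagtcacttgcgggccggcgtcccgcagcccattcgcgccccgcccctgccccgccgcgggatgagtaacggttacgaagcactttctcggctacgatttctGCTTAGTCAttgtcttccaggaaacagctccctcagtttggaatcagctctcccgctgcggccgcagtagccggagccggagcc
KEAP1, chr19:10502722-10503021, minus strand: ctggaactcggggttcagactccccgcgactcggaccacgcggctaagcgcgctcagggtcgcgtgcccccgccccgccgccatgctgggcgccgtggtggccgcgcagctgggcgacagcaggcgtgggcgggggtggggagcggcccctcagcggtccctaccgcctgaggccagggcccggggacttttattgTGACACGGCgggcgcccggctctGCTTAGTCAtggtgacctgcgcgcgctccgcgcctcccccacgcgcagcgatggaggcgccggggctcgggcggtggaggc
TXNRD1, chr12:104215529-104215828, plus strand: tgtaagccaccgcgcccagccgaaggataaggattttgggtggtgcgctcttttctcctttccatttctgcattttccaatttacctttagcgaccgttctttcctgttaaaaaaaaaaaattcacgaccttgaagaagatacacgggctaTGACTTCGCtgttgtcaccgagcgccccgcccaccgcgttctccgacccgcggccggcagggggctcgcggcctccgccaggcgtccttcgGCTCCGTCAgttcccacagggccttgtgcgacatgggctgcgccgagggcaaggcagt
The match of GCLM began 34 bases before the start and read TGACTAAGC on the opposite strand, the same letters as the KEAP1 match that began 31 bases before its start. KEAP1 had a further match, TGACACGGC, 54 bases before that start. Of the matches shown for TXNRD1, TGACTTCGC began 99 bases before the start, and TGACGGAGC began 8 bases before it on the opposite strand. The GCLC window held no match, which says nothing of sites elsewhere. Nor did any window of SQSTM1, also lower in atrazine, or the other window of KEAP1. PGD, whose window is not shown, had a match and was not called lower.

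The arrays of the groups differed in brightness. Mean intensity was 235.1 to 311.3 units on the atrazine arrays and 532.2 to 939.1 on the DMSO arrays, and 43.6% to 52.0% against 58.9% to 59.8% of probes were above background (detection p-value under 0.05). Atrazine replicate 2 stood apart, with a correlation across probes of 0.968 and 0.963 to the other atrazine arrays, which correlated with each other at 0.994. Normalized values below are log2 intensities after background correction and quantile normalization. Changes are atrazine minus DMSO from limma's fit to all 12969 probes that were above background on all 3 arrays of at least 1 group, with Benjamini-Hochberg adjustment over those probes. Of 11 probes for noradrenergic neuroblastoma markers, 10 were above background on all 6 arrays (PHOX2A, GATA2, GATA3, ISL1, TH, DBH, CHGA, CHGB, STMN2 and ELAVL4), and that of HAND2 was on none.

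Transcripts of the catalytic subunit of glutamate-cysteine ligase, p62, KEAP1 and thioredoxin reductase were lower in atrazine, and no probe of the 9 genes was called higher. Of the 11 probes, 9 passed the detection filter, 1 for each gene. Those of GCLC and SQSTM1 were above background on 2 of 3 atrazine arrays, and so passed only through DMSO. KEAP1, GCLC, TXNRD1 and SQSTM1 fell, which is 4 of 9 (44.4%), where 39.6% of all tested probes were called lower, 27.7% higher and 67.3% in either direction. This split depended on how arrays were put on a common scale, with 9 of 9 called lower both under median scaling (68.5% of all probes lower and 15.3% higher) and without scaling (77.2% lower), and 2 lower (GCLC and TXNRD1) and 1 higher (PGD) under scaling to housekeeping genes (20.6% of all probes lower and 47.5% higher). The share called lower was near that of all probes, and no gene here was called higher, so the share called in either direction was below that of all probes. In 8 of the 9 the groups did not overlap, which held for 75.0% of all probes.

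**Figure D1:**
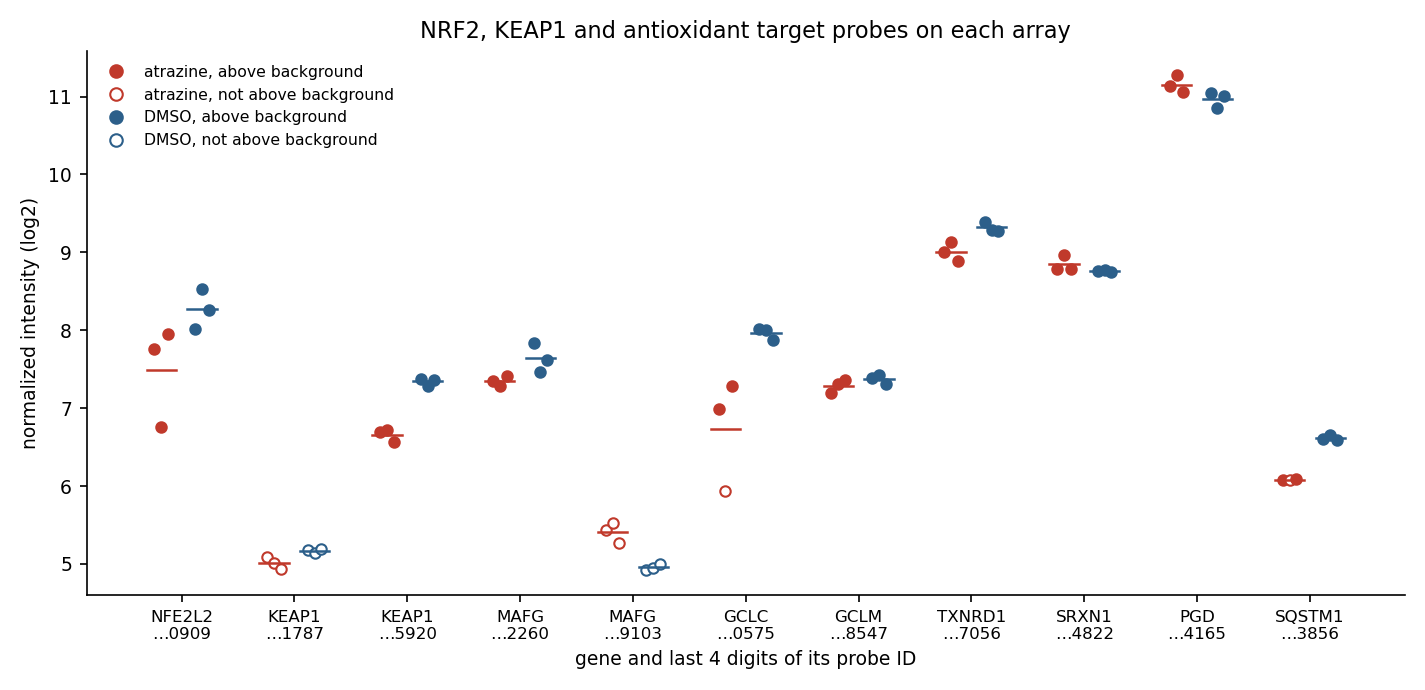
Normalized intensity (log2) of all 11 probes of the 9 genes on each array, atrazine in red and DMSO in blue. Points are arrays, horizontal lines are group means (n = 3), and open points were not above background on that array. KEAP1 (probe ILMN_1775920), GCLC and SQSTM1 lie lower on every atrazine array than on any DMSO array, while the GCLM groups overlap.

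NFE2L2 itself (probe ILMN_1790909) read 7.76, 6.76 and 7.95 in atrazine replicates 1, 2 and 3, against 8.02, 8.53 and 8.26 in the DMSO replicates. All atrazine arrays lay below all DMSO arrays, by little for replicates 1 and 3 and by more than 1 log2 unit for replicate 2. The mean was 7.49 ± 0.64 in atrazine and 8.27 ± 0.26 in DMSO (SD, n = 3 each), a log2 change of -0.78 with a 95% interval of -1.5 to -0.07. It missed the threshold (limma adjusted p = 0.0531). Without atrazine replicate 2 the change was smaller, at -0.43, but passed (limma adjusted p = 0.0258), and without atrazine replicate 3 it was -1.03 and passed (0.0252). Over all alternatives tried, the adjusted p ran from 1.80e-11 to 0.156, and the sign was negative in each.

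KEAP1, the cytoplasmic repressor of NRF2, was measured above background by 1 of its 2 probes. On probe ILMN_1775920 it read 6.70, 6.72 and 6.56 in atrazine and 7.38, 7.29 and 7.36 in DMSO. The groups were well apart for their spread, with means of 6.66 ± 0.09 in atrazine and 7.34 ± 0.05 in DMSO (SD, n = 3 each). The log2 change was -0.68 (SE 0.10, limma adjusted p = 6.66e-04), a 1.61-fold lower level. Under housekeeping scaling it was -0.24 and not past the threshold (limma adjusted p = 0.119, against 5.45e-09 to 0.119 over all alternatives). Probe ILMN_1711787 was above background on none of the 6 arrays, with means of 5.01 in atrazine and 5.17 in DMSO, so the fall rests on 1 probe.

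MAFG, a small MAF partner of NRF2, read 7.35, 7.28 and 7.41 in atrazine and 7.84, 7.47 and 7.62 in DMSO on probe ILMN_1692260. The lowest DMSO array was close to the highest atrazine array, and the change of -0.30 (95% interval -0.58 to -0.02) missed the threshold (limma adjusted p = 0.0596). Without DMSO replicate 2 it was -0.37 and passed (limma adjusted p = 0.0376, with 1.28e-07 to 0.832 over all alternatives). The other MAFG probe, ILMN_1769103, was above background on no array and differed in direction, with 5.44, 5.53 and 5.27 in atrazine against 4.92, 4.95 and 5.00 in DMSO.

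SQSTM1, which encodes p62, had very even values on probe ILMN_1703856, at 6.08, 6.08 and 6.09 in atrazine and 6.61, 6.66 and 6.59 in DMSO. It fell by 0.54 on the log2 scale (SE 0.09, limma adjusted p = 0.00134). The atrazine values lay at the edge of detection, above background on 2 of 3 arrays, where the lowest detected normalized values of these arrays were 5.76, 6.25 and 5.68. The direction turned under housekeeping scaling, to 0.25, which did not pass (limma adjusted p = 0.113, with 6.07e-06 to 0.113 over all alternatives).

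Glutathione synthesis starts with glutamate-cysteine ligase, made of a catalytic subunit (GCLC) and a modifier subunit (GCLM). GCLC (probe ILMN_1730575) read 6.99, 5.94 and 7.28 in atrazine and 8.02, 8.0 and 7.87 in DMSO. Every atrazine array was lower than every DMSO array, and the lowest, replicate 2, was not above background. The mean was 6.74 ± 0.70 in atrazine and 7.96 ± 0.08 in DMSO (SD, n = 3 each), a change of -1.23 (SE 0.31, limma adjusted p = 0.0101), or 2.34-fold lower. Only 7.82% of tested probes had a more negative change. Without atrazine replicate 2 GCLC changed by -0.86 and still passed (limma adjusted p = 1.02e-04), and its call held under every alternative that tested it (adjusted p at most 0.0397).

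GCLM (probe ILMN_1788547) read 7.19, 7.31 and 7.36 in atrazine and 7.39, 7.43 and 7.31 in DMSO. These groups overlapped, and the change of -0.09 did not pass (limma adjusted p = 0.433), with a 95% interval of -0.32 to 0.14. The interval leaves out a fall of the size seen for GCLC on the quantile scale. GCLM turned to 0.22 under housekeeping scaling, which did not pass, and was -0.98 under median scaling, which did.

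**Figure D2:**
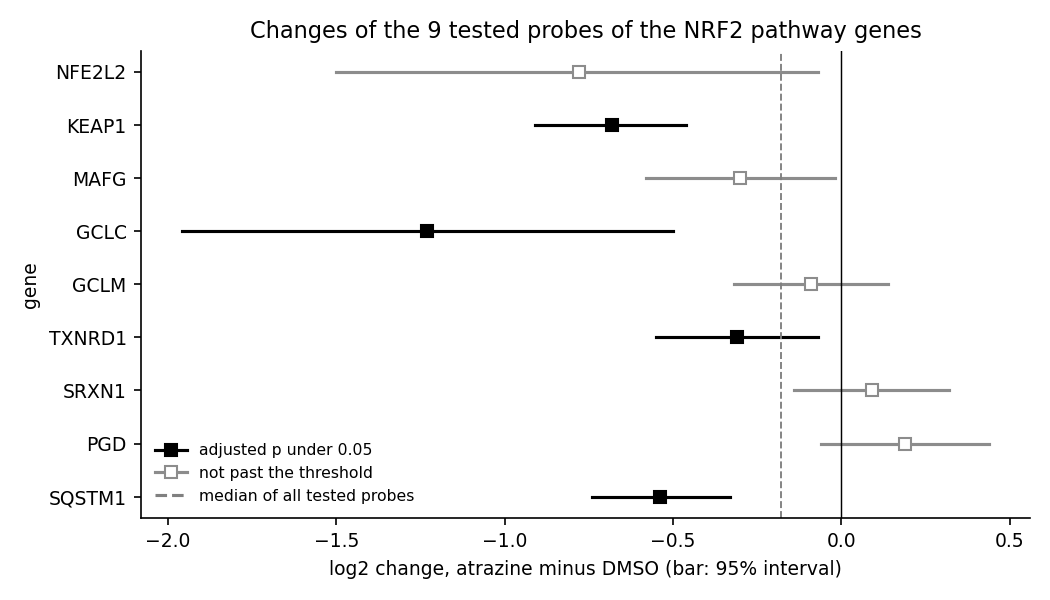
Log2 change (atrazine minus DMSO) of the 9 tested probes, 1 for each gene, with 95% intervals from the limma fit to 3 arrays per group. Filled squares passed the adjusted threshold of 0.05. GCLC has the most negative value at -1.23 and a wide interval, and PGD the most positive at 0.19, while the dashed line marks the median of all tested probes at -0.18.

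The thioredoxin branch was represented by TXNRD1, the cytosolic thioredoxin reductase, and SRXN1, sulfiredoxin, which repairs over-oxidised peroxiredoxins. TXNRD1 (probe ILMN_1717056) read 9.01, 9.13 and 8.89 in atrazine and 9.39, 9.29 and 9.28 in DMSO. The groups did not overlap and the change was small, at -0.31 (SE 0.10, limma adjusted p = 0.0295). The call was lost on leaving out any array except atrazine replicate 2, with changes of -0.32 without atrazine replicate 1, -0.26 without atrazine replicate 3, and -0.28, -0.32 and -0.32 without DMSO replicates 1, 2 and 3. The limma adjusted p was then 0.0614 to 0.0917.

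SRXN1 (probe ILMN_1804822) read 8.79, 8.97 and 8.79 in atrazine and 8.76, 8.77 and 8.75 in DMSO. Its atrazine arrays were all slightly above the DMSO arrays, and the change of 0.09 (95% interval -0.14 to 0.32) did not pass (limma adjusted p = 0.429). PGD, 6-phosphogluconate dehydrogenase, makes NADPH in the pentose phosphate pathway. Its probe ILMN_1794165 read 11.13, 11.27 and 11.06 in atrazine and 11.04, 10.85 and 11.01 in DMSO, with the ranges close to each other. The change of 0.19 (95% interval -0.06 to 0.44) did not pass (limma adjusted p = 0.154). Both SRXN1 and PGD changed sign under median scaling, to -1.08 and -0.87, and these values passed.

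The median change over all tested probes was -0.18 after quantile normalization, -0.90 under median scaling, 0.30 under housekeeping scaling and -1.61 without scaling. The calls over all probes were 3597 higher and 5137 lower after quantile normalization, 1979 and 8880 under median scaling, 6155 and 2674 under housekeeping scaling, and 338 and 10009 without scaling. Relative to these medians, GCLC stood at -1.05 after quantile normalization and -1.11 under median scaling, and NFE2L2 at -0.60 and -0.88. KEAP1 was also below the median of all probes in both settings, at -0.51 and -0.54. TXNRD1 moved away from the median under median scaling (-0.14 and -0.63), whereas SQSTM1 moved towards it (-0.36 and -0.05). PGD was above the median after quantile normalization and at it under median scaling, at 0.37 and 0.02, and SRXN1 lay at 0.27 and -0.18, on different sides of it.

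**Figure D3:**
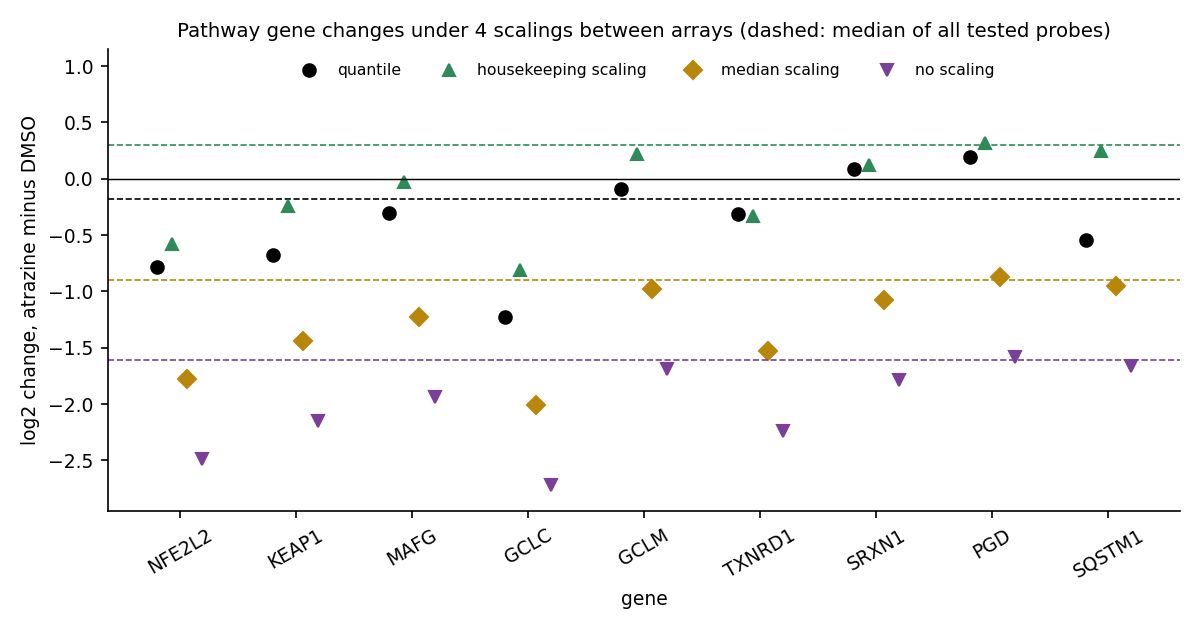
Log2 change (atrazine minus DMSO) of the 9 genes under 4 scalings between arrays, 1 symbol per scaling, with a dashed line in the same colour at the median of all tested probes. All symbols shift with the scaling. NFE2L2, KEAP1, MAFG, GCLC, TXNRD1 and SQSTM1 lie below the median of all probes in each, GCLC furthest.

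Differences between probes on the same array do not depend on a constant scale factor, and 4 pairs, chosen with the values known, were compared in this way. The difference of GCLC minus GCLM was -0.20, -1.37 and -0.09 in atrazine and 0.63, 0.57 and 0.55 in DMSO. It was lower by 1.14 log2 units in atrazine (difference in change of -1.14), and the groups did not overlap. The two-sided exact permutation test gave p = 0.1, the smallest that 3 arrays against 3 allow, so this design cannot reach 0.05. Without quantile normalization the difference was -1.03, and without atrazine replicate 2 it was -0.75, and it was negative in each setting tried.

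TXNRD1 minus SRXN1 was 0.22, 0.15 and 0.10 in atrazine and 0.63, 0.52 and 0.53 in DMSO, a difference in change of -0.40 that again reached the smallest exact permutation p of 0.1. Every atrazine array had a smaller difference than any DMSO array. NFE2L2 minus KEAP1 was 1.06, 0.04 and 1.39 in atrazine and 0.63, 1.24 and 0.91 in DMSO. That difference overlapped between groups (-0.10, exact permutation p = 0.9), as did SQSTM1 minus KEAP1 (0.15, exact permutation p = 0.2). Without quantile normalization NFE2L2 minus KEAP1 was -0.34, SQSTM1 minus KEAP1 0.49 and TXNRD1 minus SRXN1 -0.45. The size of the differences against KEAP1 thus depended on that step, and these values were not tested. Adjusted over the 4 pairs, the smallest p was 0.2.

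**Figure D4:**
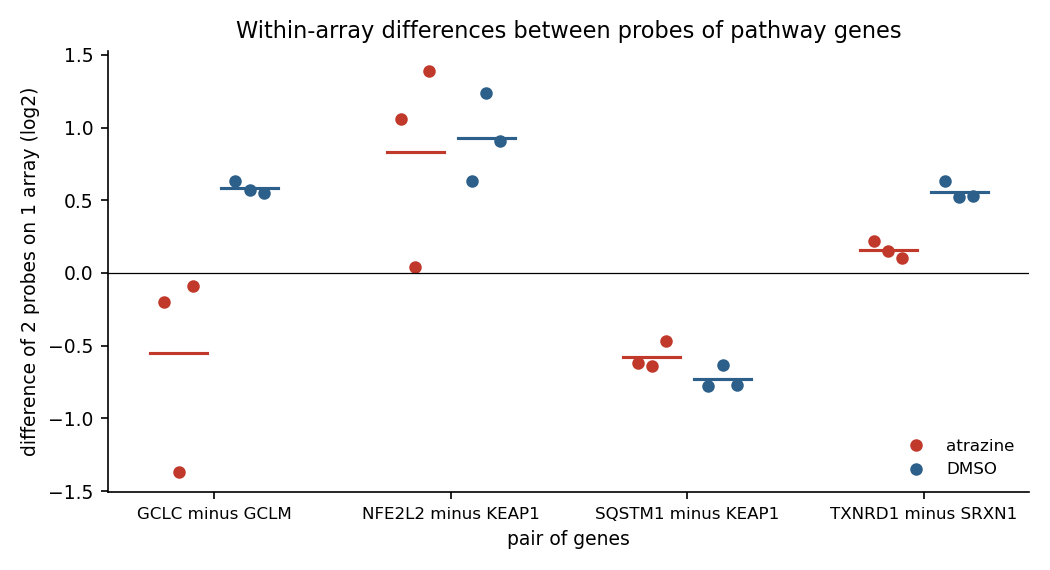
Difference of the log2 intensities of 2 probes on the same array, for 4 pairs of genes, atrazine in red left of DMSO in blue. Points are arrays and lines are means of 3. The groups separate for GCLC minus GCLM and for TXNRD1 minus SRXN1 and overlap for the other pairs; the height of a pair on the axis has no meaning, since probes differ in brightness.

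Genes around these 9 were counted in 6 lists. The counts are to be read beside the shares of all tested probes. Those were 39.6% lower and 27.7% higher after quantile normalization. They were 68.5% and 15.3% under median scaling, and 20.6% and 47.5% under housekeeping scaling. Among partners and regulators of NRF2, 6 of 16 tested probes rose and 3 fell, with a median change of -0.01 (3 and 12 under median scaling, 6 and 3 under housekeeping scaling). Under median scaling the list median was -1.06, against -0.90 for all probes. The kinase gene GSK3B, whose product marks NRF2 for a ligase that contains the BTRC protein, rose by 2.08 (SE 0.14, limma adjusted p = 2.87e-05). BTRC gave opposite results on its probes. One was not above background in DMSO and at least 3.91-fold higher in atrazine, and the other changed by -1.06 (SE 0.11). DPP3, which can bind KEAP1, rose by 1.14 on one probe, while its other probe, at 0.06, did not pass. Under median scaling these DPP3 probes gave 0.20, which did not pass (limma adjusted p = 0.211), and -0.99, which did. CUL3, the ligase scaffold that KEAP1 works with, and BACH1, a repressor at the same elements, failed the detection filter in both groups and were not tested.

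In glutathione synthesis and reduction, 2 of 10 tested probes fell and none of them rose (9 and 0 under median scaling, 2 and 3 under housekeeping scaling), with a median of -0.11. The glutaredoxin GLRX5, which serves iron-sulfur cluster assembly in mitochondria, fell by 0.73 on the log2 scale (SE 0.11). GLRX2 was not above background in atrazine on one probe and at least 1.84-fold lower, with -0.34, not past, on another. GSS, which completes glutathione synthesis, gave 0.17 and the reductase gene GSR 0.27, neither past the threshold. SLC7A11, the cystine importer that feeds GCLC with substrate, was above background on 0 of 6 arrays.

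The thioredoxin and peroxiredoxin system had 3 rises and 4 falls in 9 tested probes, with a median of -0.22 (1 and 7 under median scaling, 4 rises and 1 fall under housekeeping scaling). PRDX4, the peroxiredoxin of the endoplasmic reticulum, rose by 1.60 (SE 0.14). PRDX1, a cytosolic substrate of sulfiredoxin, changed by -0.73 (SE 0.09), which was -0.04 and not past under housekeeping scaling. The mitochondrial reductase gene TXNRD2 fell by 0.82 on the log2 scale. TXN, the thioredoxin that TXNRD1 reduces, fell by 0.45 on one probe (limma adjusted p = 0.0155), and its other probe, at -0.22, missed the threshold (0.0619). Under housekeeping scaling neither passed, at -0.19 and 0.18.

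Of 8 tested probes of the pentose phosphate pathway and NADPH supply, 1 rose (TKT, transketolase, by 0.69), 1 fell (RPE, an epimerase, by 0.43 on the log2 scale) and 6 did not pass, with a median of 0.00. Under median scaling 7 fell and TKT was at -0.27, not past, and under housekeeping scaling 2 rose and 2 fell. IDH1 (0.00), ME1 (0.03) and TALDO1 (0.10), which also serve NADPH supply or the sugar interconversions, did not pass. Together with PGD, most transcripts of this branch showed no difference past the threshold after quantile normalization.

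Among further NRF2 targets, 6 of 10 tested probes fell and 2 rose, where 39.6% and 27.7% of all tested probes did. The median was -0.46 against -0.18 for all probes. Under median scaling 8 fell and 2 rose, with a median of -1.31 against -0.90 for all probes, but under housekeeping scaling 2 fell and 3 rose. NQO1, the quinone reductase often used to read NRF2 activity, had 4.82, 4.85 and 4.83 in atrazine and 6.46, 6.38 and 6.25 in DMSO. It was above background on no atrazine array and on all DMSO arrays, so it passed the filter only through DMSO. The level was at least 1.38-fold lower in atrazine, a bound that was not itself tested. The log2 change of NQO1, -1.53 (limma adjusted p = 2.13e-05), used atrazine values that were not above background. Under housekeeping scaling this change was -0.14 and did not pass. CBR1, a carbonyl reductase, fell by 0.85 on the log2 scale, and was at -0.24 and not past under housekeeping scaling (limma adjusted p = 0.144). EPHX1, the microsomal epoxide hydrolase, rose by 2.73 (SE 0.25), and FTL, the ferritin light chain, by 0.87. The 2 falls called under housekeeping scaling were UGDH (-1.98 after quantile normalization and -1.64 there) and GSTA4 (-0.60 and -0.62). UGDH was above background on 2 of 3 atrazine arrays. The 3 rises called there were EPHX1, FTL and CBR3. HMOX1, haem oxygenase 1, was above background on 0 of 6 arrays, with means of 4.83 in atrazine and 4.80 in DMSO.

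Autophagy partners of p62 fell on 9 of 16 tested probes and rose on 3, with a median of -0.42 (12 and 2 under median scaling, 5 falls and 9 rises under housekeeping scaling). The list median was below that of all probes after quantile normalization but above it under median scaling (-0.70 against -0.90). NBR1, a receptor related to p62, rose by 1.78 (SE 0.14) on one probe. Another NBR1 probe was above background on no atrazine array and all DMSO arrays, at levels that allow no fold, and its change turned sign with the scaling. MAP1LC3A, an LC3 protein that p62 binds, rose by 1.22, while its relative MAP1LC3B changed by -0.55. WDFY3, a scaffold for clearing p62 bodies, was detected only in DMSO, at a level that allows no fold, and was 0.92 under housekeeping scaling, in the opposite direction. CALCOCO2, also counted as a fall, was likewise detected only in DMSO and was called higher under housekeeping scaling, at 0.54. The NBR1 probe detected only in DMSO, counted as a fall too, was called higher there at 0.87. GABARAP and OPTN, also counted as falls, were above background on 2 of 3 atrazine arrays. All 16 tested probes were above background on every DMSO array, but only 9 on every atrazine array. The others, including the falls of CALCOCO2, WDFY3, GABARAP, OPTN and this NBR1 probe, passed the filter only through DMSO. The count of falls and the median depend in part on that filter.

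**Figure D5:**
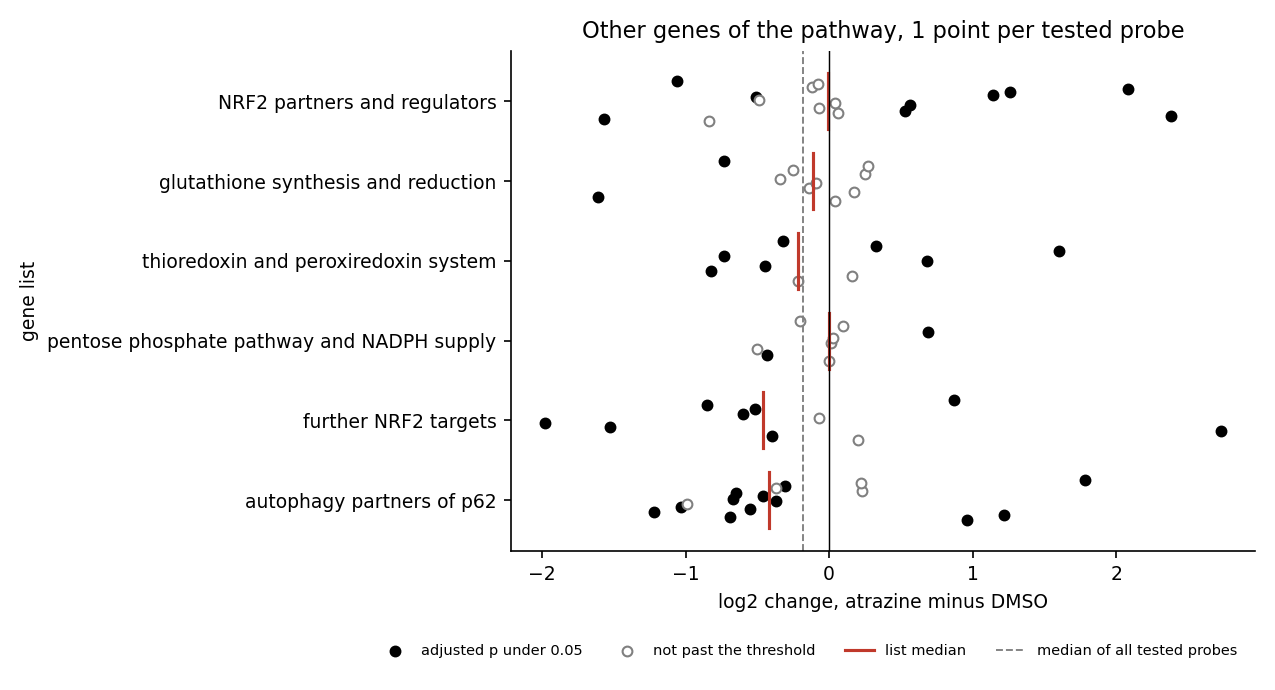
Log2 change (atrazine minus DMSO) of each tested probe in 6 lists of genes around the NRF2 pathway, with filled points past the adjusted threshold of 0.05, red lines at list medians and a dashed line at the median of all tested probes. The medians of further NRF2 targets (-0.46) and of autophagy partners of p62 (-0.42) lie left of the dashed line at -0.18, and that of NRF2 partners and regulators (-0.01) lies right of it. Under median scaling, not drawn, these medians were -1.31, -0.70 and -1.06, against -0.90 for all probes. Only further NRF2 targets then kept their side of the median of all probes.

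Markers of other cell types moved between the groups beside these changes. Of all tested probes, 39.6% were called lower and 27.7% higher (68.5% and 15.3% with median scaling, 20.6% and 47.5% with housekeeping scaling). Of 13 haematopoietic probes 3 were tested, of AIF1, CD79A and PTPRC, and each was above background on all 3 atrazine arrays and on no DMSO array, so that these probes passed the filter only through atrazine. The other CD79A probe, the other 2 of PTPRC and those of CD14, CD3E, LAPTM5 and TYROBP were above background on no array. The other AIF1 probe was above background on 1 atrazine array and LYZ on 2, both on no DMSO array. CD68 went the other way, above background on 2 DMSO arrays and on no atrazine array. The summed normalized intensity of the list was 755 to 836 in atrazine and 410 to 426 in DMSO. Fibroblast markers rose on 5 of 8 tested probes and fell on 2 (1 rise and 2 falls with median scaling, 8 rises and 0 falls with housekeeping scaling), with sums of 4292 to 4688 in atrazine and 2534 to 2842 in DMSO. The falls, of COL1A2 and 1 DCN probe, were above background on no atrazine array and passed the filter only through DMSO. The other DCN probes rose, by 0.46 and 1.27. Epithelial probes, of which 4 were tested, fell on 2 and rose on 1 (median scaling gave 0 falls and 1 rise, housekeeping scaling 0 falls and 4 rises), with sums of 441 to 478 in atrazine and 385 to 401 in DMSO. These falls, of KRT8 and 1 KRT18 probe, likewise passed only through DMSO, above background on no atrazine array. Another KRT18 probe gave the rise, by 1.13. Noradrenergic markers fell on 7 of 10 tested probes and rose on 1. Median scaling gave 8 falls and 1 rise, and housekeeping scaling 6 falls and 2 rises. Their sums were 32766 to 33846 in atrazine and 49577 to 54947 in DMSO. The part of any of these in the changes of the NRF2 genes was not tested. In bulk RNA, fewer cells of a type and less RNA per cell cannot be told apart.

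By Pearson correlation over the 6 arrays, the probes most like NFE2L2 were those of KCNK1 (r = 0.9985), TAF7 (0.9979), ASCC3 (0.9979) and EMC2 (0.9977). Those most like KEAP1 were DDX28 (0.9996), MSRB1 (0.9991), EIF4EBP2 (0.9989) and HPS6 (0.9987). Such values are easily reached with 6 arrays in 2 groups, since r was above 0.95 for 502 of 11779 named probes with NFE2L2 and for 1726 with KEAP1.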

How the data were processed

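The authors deposited raw signal intensity for 22184 probes on 6 arrays and, per the file headers, the detection p-value of each. A second deposited table holds processed intensity values, which kept the raw rank order and had a median of 111.5 on every array, and was used as an alternative. Scanner software is not given in the sources used here. With limma 3.58.1 (R 4.3.3), intensities were background corrected by normexp from the detection p-values (offset 16), followed by quantile normalization on log2. Probes came with 1 symbol in 19715 cases, and 19695 of these had a gene ID that RefSeq lists today. Tests were run on the 12969 probes with detection p-values under 0.05 throughout at least 1 group. Groups were compared with lmFit and eBayes, two-sided, threshold 0.05 after Benjamini-Hochberg adjustment. With 3 arrays a group, the number of arrays limits the precision. Where no array of a group detected a probe, the text prints a lower bound on the fold. It sets the mean of the detected group against the mean, over the other arrays, of the lowest detected value or the probe's own if higher, and bounds under 1 are left out. Housekeeping scaling used the 20 probes that passed the detection filter, from a list with 17 genes on the array. Genes named are all probes of the 9 genes, up to 3 of smallest p past the threshold in each list, and a few fixed names (NQO1, HMOX1, SLC7A11, TXN). Further names (second probes, relatives of these and others of the lists) were chosen after their values were seen. The genes and lists were chosen with earlier results of these data known.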

Additional observations from a re-analysis of the deposited data

How the results depend on the processing

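The count of called probes was 3985 of 6178 when detection was required on all 6 arrays at p under 0.01 (2103 higher and 1882 lower), a filter that left TXNRD1, SRXN1 and PGD of the 9 genes and called 1 of them. Of the 9 genes' probes, 9 were called lower both under median scaling and without scaling, and the 6 lists had 63 and 61 calls there, 26 with the stricter detection and 40 in the setting reported. Leaving out 1 array gave 7507 to 9484 calls over all probes, 3 to 5 among the 9 genes and 33 to 44 in the lists. NFE2L2 passed at -0.62 without background correction, -0.67 with an offset of 50, -1.78 under median scaling, -2.49 without scaling, -0.69 in the authors' processed intensities and -0.52 with array weights, and ran from -1.03 to -0.43 with 1 array left out. MAFG passed at -1.23 under median scaling, -1.94 without scaling and -0.27 with array weights (-0.37 to -0.19 with 1 array left out). GCLM passed at -0.98 and -1.69 under these 2 scalings and turned to 0.22 under housekeeping scaling. SRXN1 turned to -1.08 and -1.79 and PGD to -0.87 and -1.58 under median scaling and without scaling, and PGD passed at 0.32 under housekeeping scaling. There KEAP1 lost its call (-0.24) and SQSTM1 turned to 0.25. TXNRD1 ran from -0.38 to -0.26 with 1 array left out. Median scaling, housekeeping scaling and no scaling shift all changes by 1 constant from each other. The cause of the other differences was not tested. With the replicate number as a block, TXNRD1 stayed at -0.31 but lost its call, and 7598 probes were called. Arrays of the same number did not deviate together (correlations of -0.174, -0.44 and -0.293 for numbers 1, 2 and 3), so the numbers were not taken as pairs. GCLC kept its direction and call under all 17 alternatives that tested it.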
